A study of Homo sapiens with 6 samples.

Results

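The genes described here are 43 that drive mitosis, the spindle checkpoint and the kinetochore, taken by gene symbol from a list. The list was chosen with earlier results of these data known, and all 43 genes were found among the 19395 named genes of the count table. They were followed in 3 libraries labelled oeTNFRSF12A, from cells that overexpress the TWEAK receptor TNFRSF12A and were given doxycycline at 0.1 µg/mL for 48 h, against 3 libraries labelled oeControl, whose genotype is given as WT and whose treatment is given as untreated, although the protocol text on doxycycline stands on every sample. Cells of both groups are labelled DLD-1, an established human colorectal cancer line, and were grown in RPMI-1640 with serum. If the controls had no doxycycline, as their treatment label reads, its effect and that of overexpression cannot be told apart. The labels do not say whether the control cells carry a construct, whether the lines are clones or whether replicates are separate cultures. The p-values therefore measure only the spread between these libraries, which may be technical.

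At the entry to mitosis, cyclin-dependent kinase CDK1 bound to cyclins B and A phosphorylates the proteins that condense chromosomes and build the spindle. Kinetochores assembled on the centromere then bind microtubules, and the spindle checkpoint holds back the anaphase-promoting complex until every chromosome is attached. Most of these genes are transcribed late in the cell cycle under the DREAM and MuvB complexes with B-MYB and FOXM1, which act through promoter elements known as the CHR and through CCAAT boxes bound by NF-Y. Because their transcripts peak in G2 and M, their summed level is widely read as a sign of how many cells in a culture are cycling.

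Library totals were 18154839 to 18406885 counts, and mitochondrial transcripts took 5.89% to 6.21% of them. TNFRSF12A itself had 1203, 1133 and 1305 counts in the oeTNFRSF12A libraries, against 404, 365 and 423 in the oeControl libraries. The labelled tissue did not show in its defining markers. All 8 colon and intestine markers examined stayed under 1 CPM (counts scaled to library size) in every library, CDX1 and CEACAM5 were at 0 throughout, and the summed level of the 8 was 0.274 to 0.380 CPM in oeTNFRSF12A and 0.493 to 0.606 CPM in oeControl. Of 7 epithelial markers 4 stayed under 1 CPM, among them EPCAM with 13 counts over all libraries, while CDH1, KRT8 and KRT18 were expressed (sum of the 7: 323 to 337 CPM in oeTNFRSF12A and 332 to 339.7 CPM in oeControl). CDH1, which encodes E-cadherin, was lower, at 161, 160 and 176 counts in oeTNFRSF12A and 303, 290 and 332 in oeControl (log2 fold change -0.92, SE 0.08, edgeR adjusted p = 3.06e-09), a larger change than in any of the 43, and KRT8 changed by -0.08. The 4 mesenchymal markers VIM, CDH2, FN1 and ZEB1 summed to 6086 to 6358 CPM in oeTNFRSF12A and 5905 to 6159 CPM in oeControl. Within that sum FN1 was lower (log2 fold change -0.37) and VIM (0.13) and CDH2 (0.13) were higher, and the part of these marker changes in the results on the 43 genes was not tested. Of 3 leukocyte markers 2 were under 1 CPM.

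The promoters of the 43 genes are shown first, because the known regulators of such genes act there. RefSeq promoters of 300 bases (250 before and 50 after the transcription start, GRCh38.p14) were matched by symbol for 37 of the 43, all but AURKA, BUB3, TTK, BIRC5, UBE2C and TPX2. The letters of the CHR (TTTGAA or TTCGAA, either strand) stood in 26 of the 37 (70.3%), against 16.4% of all 35116 promoters in the same table and 11.2% of the 10445 that belong to tested genes. A CCAAT box (CCAAT, either strand) stood in 29 of the 37 (78.4%), against 34.6% of all promoters and 36.9% of those of tested genes. Both stood together in 22 of the 37 (59.5%), against 6.38% of all promoters. In the shorter window of 100 bases before and 50 after the start the CHR letters were in 62.2% of these promoters, against 7.37% of all. A match of letters describes the sequence and is no shown site of binding. These shares describe the promoters of the list, and any part of the elements in the changes between groups was not tested.

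The promoters of the 3 genes with the lowest p among the 43, ECT2, ASPM and MKI67, are printed 5′ to 3′ on the strand of the gene, with every CHR and CCAAT match in capitals. ECT2 lies at chr3:172750476-172750775 on the plus strand, with CHR letters starting at -115 and 35 from the start and 3 CCAAT boxes. ASPM lies at chr1:197146620-197146919 on the minus strand, with CHR letters at -113 and 4 CCAAT boxes, all on the opposite strand. MKI67 lies at chr10:128126374-128126673 on the minus strand, with CHR letters at -47 and -29 and CCAAT boxes at -98 and -24, the last of which overlaps the second CHR.
ECT2: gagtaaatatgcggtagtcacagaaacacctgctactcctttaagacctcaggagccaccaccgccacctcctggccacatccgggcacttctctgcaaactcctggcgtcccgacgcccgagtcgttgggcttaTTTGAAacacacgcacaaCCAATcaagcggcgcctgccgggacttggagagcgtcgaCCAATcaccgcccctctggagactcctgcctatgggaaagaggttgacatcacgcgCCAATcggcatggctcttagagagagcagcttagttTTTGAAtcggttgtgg
ASPM: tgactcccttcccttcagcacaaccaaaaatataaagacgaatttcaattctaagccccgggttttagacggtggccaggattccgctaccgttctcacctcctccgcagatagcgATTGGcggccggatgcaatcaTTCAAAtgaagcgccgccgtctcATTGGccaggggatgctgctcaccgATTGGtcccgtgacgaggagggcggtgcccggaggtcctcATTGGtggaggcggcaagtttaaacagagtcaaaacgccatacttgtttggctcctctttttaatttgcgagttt
MKI67: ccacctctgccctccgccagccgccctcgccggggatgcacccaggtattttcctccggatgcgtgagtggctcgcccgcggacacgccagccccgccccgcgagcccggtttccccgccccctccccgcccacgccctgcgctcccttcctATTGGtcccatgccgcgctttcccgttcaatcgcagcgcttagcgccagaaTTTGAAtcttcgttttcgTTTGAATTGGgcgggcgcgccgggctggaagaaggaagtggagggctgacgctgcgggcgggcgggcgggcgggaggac

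For comparison, the promoters of SPC24 and PTTG1, the genes of the 43 with the highest p, are printed in the same way. Neither window holds the CHR letters, and each holds 3 CCAAT boxes, of which 2 in PTTG1 overlap. Among the 4 genes that did not pass the test 1, SPC25, has CHR letters (at -247 and -3), while among the 33 matched genes that were higher 25 have them. With 4 genes this is a description without a test. SPC24 lies at chr19:11155733-11156032 on the minus strand and PTTG1 at chr5:160421605-160421904 on the plus strand.
SPC24: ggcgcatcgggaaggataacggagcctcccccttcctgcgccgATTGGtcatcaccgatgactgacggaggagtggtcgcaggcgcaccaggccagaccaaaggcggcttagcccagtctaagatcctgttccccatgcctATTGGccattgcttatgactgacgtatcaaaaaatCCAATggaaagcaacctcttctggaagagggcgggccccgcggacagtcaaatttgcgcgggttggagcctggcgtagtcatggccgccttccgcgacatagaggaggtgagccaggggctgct
PTTG1: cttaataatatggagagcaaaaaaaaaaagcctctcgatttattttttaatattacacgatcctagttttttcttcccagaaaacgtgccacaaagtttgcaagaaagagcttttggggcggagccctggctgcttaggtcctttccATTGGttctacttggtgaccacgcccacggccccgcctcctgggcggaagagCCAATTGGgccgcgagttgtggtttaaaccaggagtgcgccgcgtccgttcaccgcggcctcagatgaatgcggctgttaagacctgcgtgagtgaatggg

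Of the 43 genes 39 were higher in the oeTNFRSF12A libraries, 0 were lower and 4 did not pass (adjusted p under 0.05 in the quasi-likelihood test of edgeR, with p adjusted by the Benjamini-Hochberg method over 12758 tested genes). Over all tested genes 21.2% were higher and 21.1% lower, and 42.3% changed in either direction, against a share of higher calls of 90.7% among the 43. Since the list was chosen with earlier results of these data known, this contrast is a description. By DESeq2, 38 of the 43 were higher, while 1937 of the 12758 tested genes were higher and 30.8% were called in either direction. All 43 passed the filter on low counts, and the lowest count of any of them in a library was 186. The changes were small and alike. The genes that rose did so by 1.09-fold to 1.36-fold, 32 of the 39 had a log2 fold change between 0.2 and 0.4, and the median of all 43 was 0.28, against 0.0032 over all tested genes. For 37 of the 43 every oeTNFRSF12A library lay above every oeControl library in CPM, while 51.3% of all tested genes had groups that did not overlap, in either direction.

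**Figure D1:**
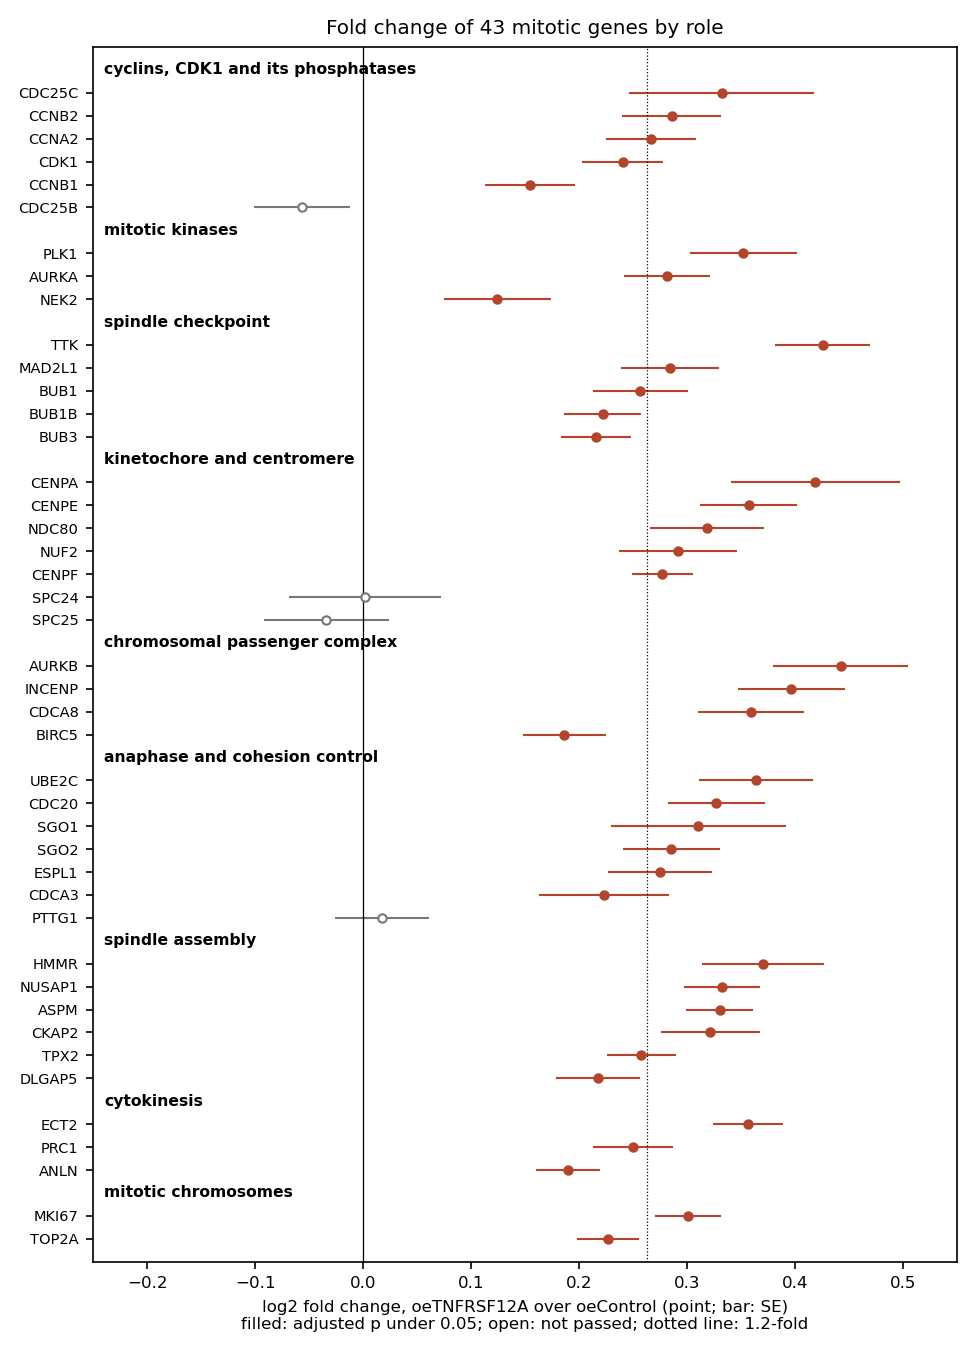
Log2 fold change (oeTNFRSF12A over oeControl, x axis) of each of the 43 genes, grouped by role. Points are estimates, bars are standard errors, filled points passed at an adjusted p under 0.05, and the dotted line marks 1.2-fold; 39 filled points lie between 0.12 and 0.44 and the 4 open ones, CDC25B, SPC24, SPC25 and PTTG1, lie near 0.

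The summed level of the 43 genes was 5800, 5640 and 5759 CPM in the oeTNFRSF12A libraries, against 4821, 4712 and 4853 CPM in the oeControl libraries. The groups did not overlap, and the sum of the means was 19.6% higher. In bulk RNA, more cycling cells, more cells in G2 or mitosis and more of these transcripts per cell cannot be told apart. Replicates lay close together, with a median coefficient of variation of 3.22% in oeTNFRSF12A and 2.95% in oeControl and a highest one of 9.29% in oeTNFRSF12A and 8.66% in oeControl. When a change of at least 1.2-fold was required by the test, 4 of the 43 genes passed, AURKB, TTK, INCENP and ECT2, while 2.45% of all tested genes passed upward and 8.26% in either direction. That count was 8 with library totals alone in place of TMM scaling, 2 without oeControl replicate 2 and 6 without oeTNFRSF12A replicate 2. With a minimum fold of 1.1, 34 passed. The share of all tested genes past the minimum fold was not computed for these other settings, so these counts lack a background.

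**Figure D2:**
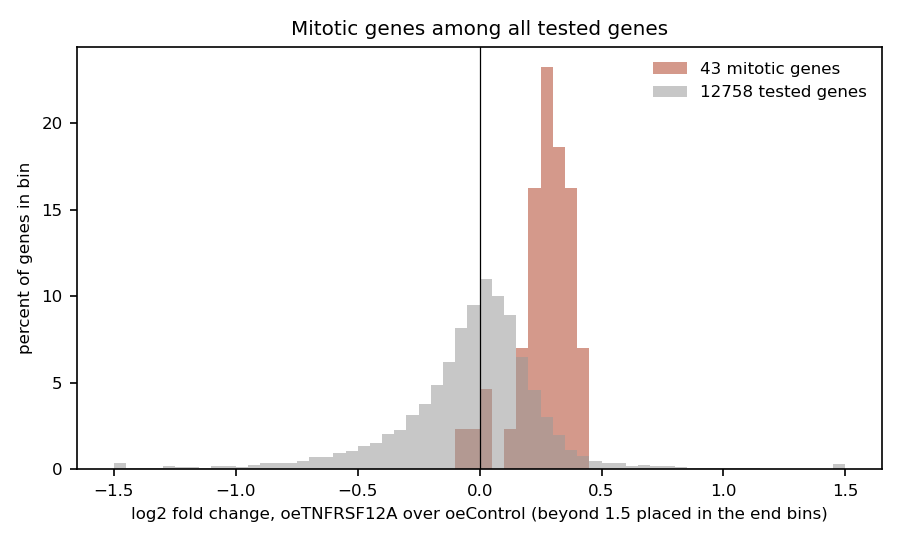
Distribution of log2 fold changes (x axis, bins of equal width; y axis, percent of genes in the bin) for the 43 mitotic genes and for all 12758 tested genes. The mitotic genes form a narrow peak with a median of 0.28, while all tested genes centre on 0.0032.

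CDK1, the kinase that starts mitosis, had 2472, 2339 and 2321 counts in the oeTNFRSF12A libraries and 1954, 1931 and 2048 in the oeControl libraries, a log2 fold change of 0.24 (SE 0.04, adjusted p = 1.41e-05). Its cyclin partners CCNA2 (0.27), CCNB2 (0.29) and CCNB1 (0.15) were higher as well. CCNB1 is 1 of 2 genes that rose with overlapping ranges, at 127 to 142 CPM in oeTNFRSF12A and 118 to 128 CPM in oeControl. Of the phosphatases that remove the inhibitory phosphates from CDK1, CDC25C was higher (0.33, SE 0.09; 264, 227 and 238 counts in oeTNFRSF12A, against 186, 195 and 188 in oeControl). CDC25B, which acts at the onset of mitosis, had 1848, 1760 and 2027 counts in oeTNFRSF12A and 1876, 1854 and 2028 in oeControl. Its groups overlapped and its log2 fold change was -0.06 (SE 0.04, adjusted p = 0.326 in edgeR's quasi-likelihood test). Without oeTNFRSF12A replicate 3, the highest of its group, CDC25B was called lower (-0.11, adjusted p = 0.0328).

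The kinases PLK1 and AURKA, which mature centrosomes and build the bipolar spindle, were higher, and NEK2, a centrosome kinase, was at the edge of the threshold. PLK1 had 1202, 1285 and 1399 counts in oeTNFRSF12A and 991, 960 and 1040 in oeControl (log2 fold change 0.35, SE 0.05), and AURKA changed by 0.28. NEK2 had 1200, 1181 and 1172 counts in oeTNFRSF12A against 1027, 1006 and 1170 in oeControl, where replicate 3 lay within the range of the oeTNFRSF12A libraries once scaled. Its log2 fold change was 0.12 (SE 0.05, adjusted p = 0.0459 in edgeR's quasi-likelihood test), and the call was lost with upper-quartile factors, a minimum count of 50 or DESeq2. It was lost too on leaving out oeTNFRSF12A replicate 1 (0.11), oeTNFRSF12A replicate 2 (0.12), oeControl replicate 1 (0.10) or oeControl replicate 2 (0.08).

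All 5 genes of the spindle checkpoint were higher, against 21.2% of all tested genes. None of their ranges overlapped, against 51.3% of all tested genes without overlap in either direction. TTK, the kinase MPS1 that starts checkpoint signalling at unattached kinetochores, had 1197, 1235 and 1297 counts in the oeTNFRSF12A libraries, against 891, 901 and 936 in the oeControl libraries. This was 67.5 ± 2.28 CPM in oeTNFRSF12A and 50.3 ± 1.12 CPM in oeControl (mean ± SD, n = 3 each), the second largest rise of the 43 (log2 fold change 0.43, SE 0.04, edgeR adjusted p = 2.93e-08). MAD2L1, which encodes the MAD2 protein that is loaded onto CDC20, changed by 0.28, and the kinase BUB1 by 0.26. BUB1B (0.22), the BUBR1 component of the inhibitory complex, and BUB3 (0.22), which recruits BUB1 and BUBR1, had the smallest rises of the 5. Of the exon bases of BUB1B 457 are shared with the readthrough model BUB1B-PAK6, which was counted at 0 in every library.

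**Figure D3:**
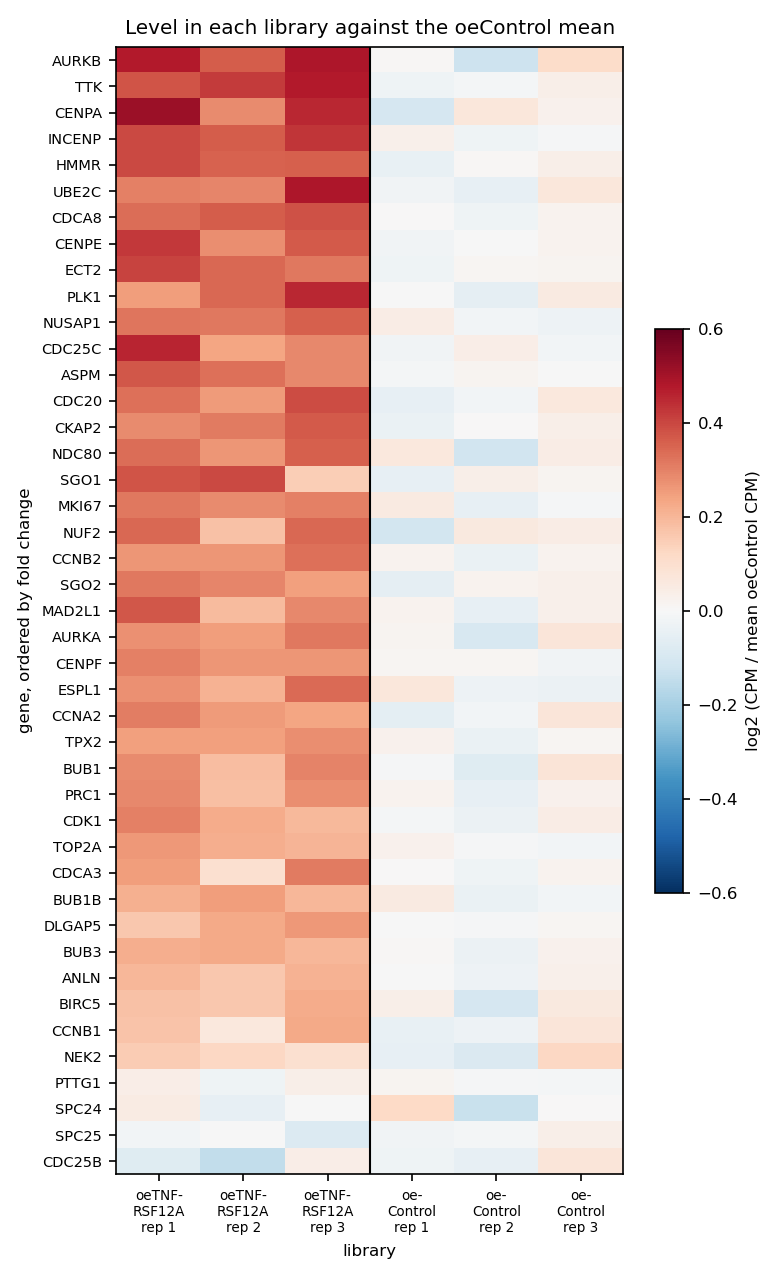
Level of each gene (rows, ordered by fold change) in each library (columns), as log2 of its CPM over the mean CPM of the oeControl libraries. The oeTNFRSF12A libraries are red for the upper 39 rows, while the last 4 rows, PTTG1, SPC24, SPC25 and CDC25B, show no such block.

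At the centromere and kinetochore 5 of 7 genes were higher, against 21.2% of all tested genes. CENPA, the histone H3 variant that marks the centromere, had 370, 316 and 359 counts in oeTNFRSF12A and 238, 268 and 262 in oeControl (18.9 ± 1.53 CPM in oeTNFRSF12A, 14.2 ± 0.845 CPM in oeControl, log2 fold change 0.42, SE 0.08, edgeR adjusted p = 1.19e-04). CENPE, the kinesin that carries chromosomes to the spindle equator, had 1355, 1229 and 1321 counts in oeTNFRSF12A, against 980, 998 and 1018 in oeControl (0.36, SE 0.04, edgeR adjusted p = 6.19e-07). CENPF, a large protein of the outer corona, reached 640.2 ± 8.91 CPM in oeTNFRSF12A and 528 ± 6.06 CPM in oeControl, with 11913, 11649 and 11781 counts against 9585, 9611 and 9465 (0.28, SE 0.03, edgeR adjusted p = 2.23e-08). In each of these genes every oeTNFRSF12A library lay above every oeControl library, while 51.3% of all tested genes had no overlap in either direction.

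The NDC80 complex, the main microtubule coupler of the kinetochore, was split between its members. It is built from the NDC80 and NUF2 proteins, which touch the microtubule, and SPC24 and SPC25, which anchor them to the kinetochore. NDC80 was higher, at 882, 842 and 908 counts in oeTNFRSF12A against 720, 638 and 716 in oeControl (log2 fold change 0.32, SE 0.05), and so was NUF2, at 1050, 936 and 1065 counts in oeTNFRSF12A against 754, 850 and 845 in oeControl (0.29, SE 0.05). SPC24 had 389, 364 and 380 counts in oeTNFRSF12A and 401, 338 and 373 in oeControl, with a log2 fold change of 0.0017 (SE 0.07, edgeR adjusted p = 0.987). SPC25 had 493, 498 and 477 counts in oeTNFRSF12A and 483, 488 and 506 in oeControl (-0.03, SE 0.06, edgeR adjusted p = 0.664). The ranges of the last 2 overlapped. The ratio of NDC80 and NUF2 counts to SPC24 and SPC25 counts was 2.19, 2.06 and 2.30 in the oeTNFRSF12A libraries, against 1.67, 1.80 and 1.78 in the oeControl libraries. This ratio was chosen after the values were seen, from genes that rose over genes that did not. Its separation follows from that choice, and it is given without a test. Of other ratios computed, CDC25C to CDC25B and AURKB to AURKA did not overlap between groups, whereas SGO1 to SGO2 did.

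All 4 genes of the chromosomal passenger complex, which corrects wrong attachments and later directs cell division, were higher, against 21.2% of all tested genes. AURKB, its kinase, showed the largest rise of the 43, with 632, 584 and 644 counts in oeTNFRSF12A against 449, 411 and 485 in oeControl (33.7 ± 1.60 CPM in oeTNFRSF12A, 24.8 ± 1.99 CPM in oeControl, log2 fold change 0.44, SE 0.06, edgeR adjusted p = 3.72e-06). INCENP, the scaffold of the complex, had 809, 792 and 837 counts in oeTNFRSF12A and 618, 595 and 607 in oeControl (0.40, SE 0.05, edgeR adjusted p = 5.70e-07). CDCA8, which encodes borealin, had 777, 794 and 812 counts in oeTNFRSF12A, against 607, 598 and 620 in oeControl (0.36, SE 0.05, edgeR adjusted p = 2.23e-06). BIRC5, which encodes survivin, changed less, by 0.19 (SE 0.04). Each of the 4 had its lowest oeTNFRSF12A library above its highest oeControl library, while 51.3% of all tested genes had no overlap in either direction.

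Among the genes of anaphase and cohesion control 6 of 7 were higher, against 21.2% of all tested genes. CDC20, the activator of the anaphase-promoting complex, had 1425, 1359 and 1509 counts in oeTNFRSF12A against 1079, 1106 and 1177 in oeControl (log2 fold change 0.33, SE 0.04, edgeR adjusted p = 2.26e-06). UBE2C, the ubiquitin-conjugating enzyme of that complex, changed by 0.36. ESPL1, which encodes the cohesin-cutting protease separase, had 1039, 996 and 1102 counts in oeTNFRSF12A and 886, 830 and 832 in oeControl (0.27, SE 0.05). PTTG1, which encodes securin, the inhibitor of separase, had 1047, 1002 and 1058 counts in oeTNFRSF12A and 1015, 1000 and 1001 in oeControl. Its ranges overlapped and its log2 fold change was 0.02 (SE 0.04, edgeR adjusted p = 0.773); the retrogene PTTG2, which could share its reads, had 0 to 1 counts per library. The ratio of ESPL1 to PTTG1 counts, also chosen after the values were seen and given without a test, was 0.992, 0.994 and 1.04 in oeTNFRSF12A and 0.873, 0.830 and 0.831 in oeControl. The cohesin protectors SGO1 (0.31) and SGO2 (0.29) and CDCA3 (0.22), known as a trigger of mitotic entry, were higher, and 679 exon bases of SGO1 are shared with SGO1-AS1 on the opposite strand.

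**Figure D4:**
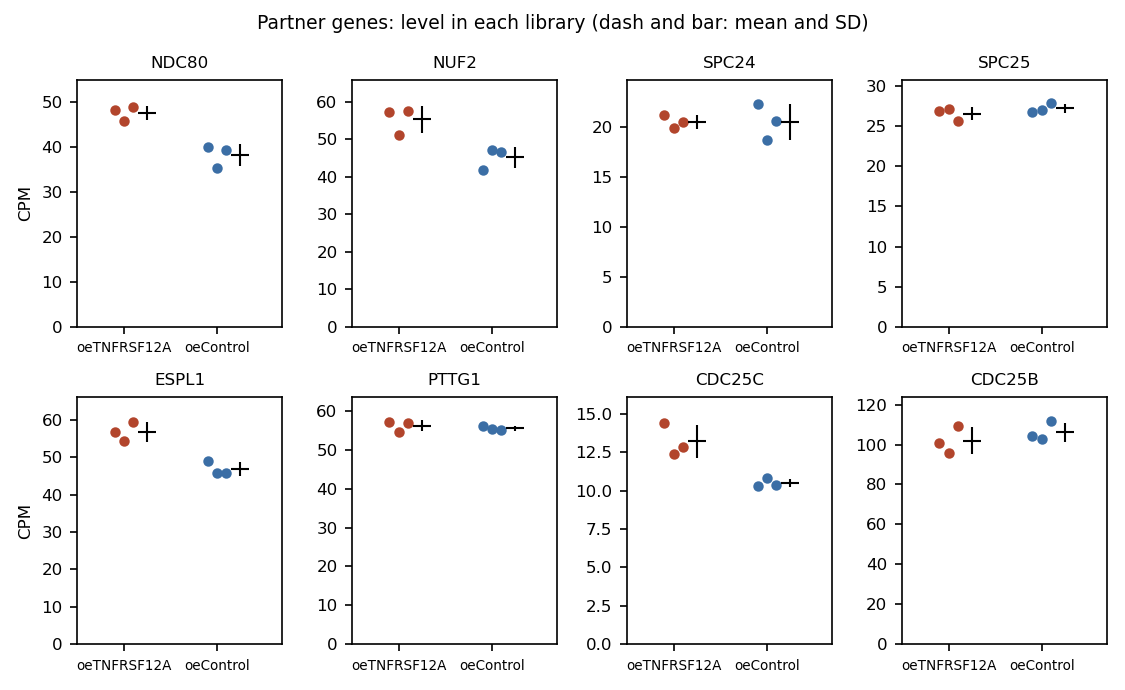
CPM (y axis, from 0) of the NDC80 complex genes, of separase (ESPL1) and securin (PTTG1), and of CDC25C and CDC25B in each library (points), with mean and SD. NDC80, NUF2, ESPL1 and CDC25C are higher in every oeTNFRSF12A library, whereas SPC24, SPC25, PTTG1 and CDC25B overlap.

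All 6 spindle assembly genes were higher, against 21.2% of all tested genes. ASPM, a protein of the spindle poles, had 5398, 5245 and 5161 counts in the oeTNFRSF12A libraries, against 4066, 4164 and 4124 in the oeControl libraries (log2 fold change 0.33, SE 0.03, edgeR adjusted p = 6.19e-09). NUSAP1, which bundles spindle microtubules, had 2550, 2547 and 2657 counts in oeTNFRSF12A and 2074, 1991 and 1985 in oeControl (0.33, SE 0.04, edgeR adjusted p = 3.79e-08). TPX2, the activator of Aurora A on the spindle, had 4206, 4201 and 4359 counts in oeTNFRSF12A, against 3545, 3402 and 3544 in oeControl (0.26, SE 0.03, edgeR adjusted p = 4.28e-07). HMMR (0.37), the hyaluronan receptor that also sits at spindle poles, CKAP2 (0.32) and DLGAP5 (0.22), both microtubule-associated proteins, completed the group. Reads of NUSAP1 are uncertain, since 1787 of its 2875 exon bases are shared with the gene model AC087721.2 on the same strand.

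Genes of cytokinesis and of the mitotic chromosomes were higher without exception among the 5 examined, against 21.2% of all tested genes. ECT2, the exchange factor that activates RhoA at the cleavage furrow, had 4807, 4621 and 4571 counts in oeTNFRSF12A and 3507, 3604 and 3636 in oeControl (254 ± 8.17 CPM in oeTNFRSF12A, 198 ± 3.05 CPM in oeControl, log2 fold change 0.36, SE 0.03). Its p, 2.97e-09 after adjustment (edgeR), was the lowest of the 43. PRC1 (0.25), which bundles the central spindle, and the furrow scaffold ANLN (0.19) were higher too, although 3181 of the 5525 exon bases of PRC1 are shared with the model AC068831.7 on the same strand. MKI67, the proliferation antigen Ki-67 that coats mitotic chromosomes, had 10280, 10068 and 10306 counts in oeTNFRSF12A, against 8429, 7883 and 8142 in oeControl (0.30, SE 0.03, edgeR adjusted p = 1.94e-08). TOP2A, the topoisomerase that disentangles sister chromatids, had 12621, 12260 and 12272 counts in oeTNFRSF12A and 10533, 10330 and 10330 in oeControl (0.23, SE 0.03, edgeR adjusted p = 7.84e-07). In total 15 of the 43 genes share exon bases with another annotated gene, 11 of them mainly with a gene on the opposite strand, and whether the counting used strand is not stated in the labels.

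Other genes of mitosis outside the 43 were counted by complex, beside shares of 21.2% higher and 21.1% lower over all tested genes. In the outer kinetochore 14 of 20 were higher and 0 lower (median log2 fold change 0.20), with KNL1, the scaffold of the NDC80 and checkpoint proteins, at 0.30 and ZWINT at 0.25. Of the inner kinetochore 14 of 20 were higher and 0 lower (median 0.24), with the lowest p in CENPT and CENPU (0.37). CENPT, which links centromeric DNA to the NDC80 complex, stood apart, with 1250, 1278 and 1384 counts in oeTNFRSF12A against 523, 560 and 542 in oeControl. The groups lay far apart, at a log2 fold change of 1.24 (SE 0.05, edgeR adjusted p = 6.85e-16), a larger change than in any of the 43. Of its 5539 exon bases 596 are shared with TSNAXIP1, 380 with THAP11 and 110 with NUTF2, all on the opposite strand, and these changed by -0.47, -0.15 and 0.28.

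Chromosome structure genes are given by complex, beside 21.2% of all tested genes higher and 42.3% called in either direction. Of the 8 condensin genes 7 were higher and 0 lower (median 0.20), with NCAPH at 0.34 and NCAPG at 0.27. Of 14 genes of cohesin and its regulators 5 were higher and 0 lower (median 0.07), with the acetyltransferase ESCO2 at 0.38 and CDCA5, which encodes sororin, at 0.36. The 35.7% of this list that was called lay under the 42.3% of all tested genes called in either direction. Whether condensin and cohesin genes differ from each other was not tested. The anaphase-promoting complex and its regulators had 9 of 21 higher and 2 lower (median 0.12), or 52.4% called in either direction. CDC27 (0.13) and ANAPC5 (0.16), both subunits, were higher, while ANAPC16 (-0.16) and FZR1 (-0.17), which encodes the late activator CDH1 of the complex, were lower. FZR1 lost its call with DESeq2 (adjusted p = 0.0991) and on leaving out oeControl replicate 2 (-0.17) or oeControl replicate 3 (-0.17).

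Of 22 kinases, phosphatases and CDK partners of mitotic entry 10 were higher and 2 lower (median 0.12). This list had 54.5% called in either direction, against 42.3% of all tested genes, of which 21.2% were higher and 21.1% lower. PLK4, which licenses centriole duplication, changed by 0.42 and MASTL, the Greatwall kinase, by 0.28, while the phosphatase subunits PPP2R5A (-0.22) and PPP1CB (-0.11) were lower. PPP1CB lost its call on leaving out oeTNFRSF12A replicate 3 (-0.07) or oeControl replicate 2 (-0.10). The spindle pole and centrosome list had 16 of 24 higher and 1 lower (median 0.22), with SPAG5 at 0.32, STIL at 0.30 and the augmin subunit HAUS4 at -0.22. HAUS4 lost its call with DESeq2 (adjusted p = 0.0535) and on leaving out oeTNFRSF12A replicate 2 (-0.21), oeControl replicate 1 (-0.17) or oeControl replicate 2 (-0.19). The cytokinesis list had 7 of 15 higher and 2 lower (median 0.0093). It is a mixed list that also holds the polo-like kinases PLK2 (0.0093) and PLK3 (-0.12). Its median is the value of PLK2 and depends on which genes were listed. The centralspindlin kinesin KIF23 (0.33) and ARHGAP11A (0.26) were higher, and the septins SEPTIN9 (-0.28) and SEPTIN6 (-0.28), filament proteins that also serve outside mitosis, were lower.

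Of 24 known regulators of G2 and M transcription 15 were higher and 1 lower (median 0.15), against 21.2% higher and 21.1% lower of all tested genes. FOXM1, the forkhead activator of the late mitotic genes, had 2092, 2096 and 2077 counts in oeTNFRSF12A and 1733, 1648 and 1814 in oeControl (log2 fold change 0.24, SE 0.04). MYBL2, which encodes B-MYB, changed by 0.19, MYBL1 by 0.43 and E2F8, a repressor of the E2F family, by 0.40. E2F4 (0.31) and E2F1 (0.20) were higher and TFDP2 (-0.20), an E2F partner, lower. RBL1 (0.13), which encodes the pocket protein p107, was called, whereas RBL2 (-0.02), RB1 (0.12) and LIN54 (0.15), the DNA-binding subunit of MuvB that reads the CHR, did not pass. RBL1 lost its call with DESeq2 (adjusted p = 0.117), with upper-quartile factors (adjusted p = 0.0552) and on leaving out oeTNFRSF12A replicate 1 (0.11), oeTNFRSF12A replicate 2 (0.10), oeControl replicate 2 (0.09) or oeControl replicate 3 (0.14), and E2F1 without oeControl replicate 2 (0.15). LIN54 was called without oeTNFRSF12A replicate 3 (0.21), with library totals alone (0.17) and with no filter on low counts (0.15). RB1 was called without oeTNFRSF12A replicate 2 (0.17) and with no filter on low counts (0.12).

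Genes of the earlier phases of the cell cycle were counted in the same way, beside 21.2% higher and 21.1% lower over all tested genes. Of 20 replication and S phase genes 18 were higher and 0 lower (median 0.24), with PCNA at 0.32 and CLSPN at 0.39. Of 16 tested G1 cyclins, CDKs and CDK inhibitors 9 were higher and 1 lower (median 0.14). The licensing factor CDC6 changed by 0.24, geminin (GMNN) by 0.33 and the CDK4 and CDK6 inhibitor gene CDKN2D by -0.35. Of the other CDK inhibitor genes tested, CDKN1A (0.17) was called higher. CDKN1B (-0.02), CDKN2C (0.07) and CDKN1C (0.53, at 4 to 12 counts per library) were not called. CDKN2D had only 82, 73 and 88 counts in oeTNFRSF12A and 104, 106 and 95 in oeControl, and lost its call with DESeq2 (adjusted p = 0.131) and on leaving out oeTNFRSF12A replicate 2 (-0.29), oeControl replicate 1 (-0.33) or oeControl replicate 2 (-0.32). Differences in log2 fold change between these lists and the 43 genes were not tested.

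**Figure D5:**
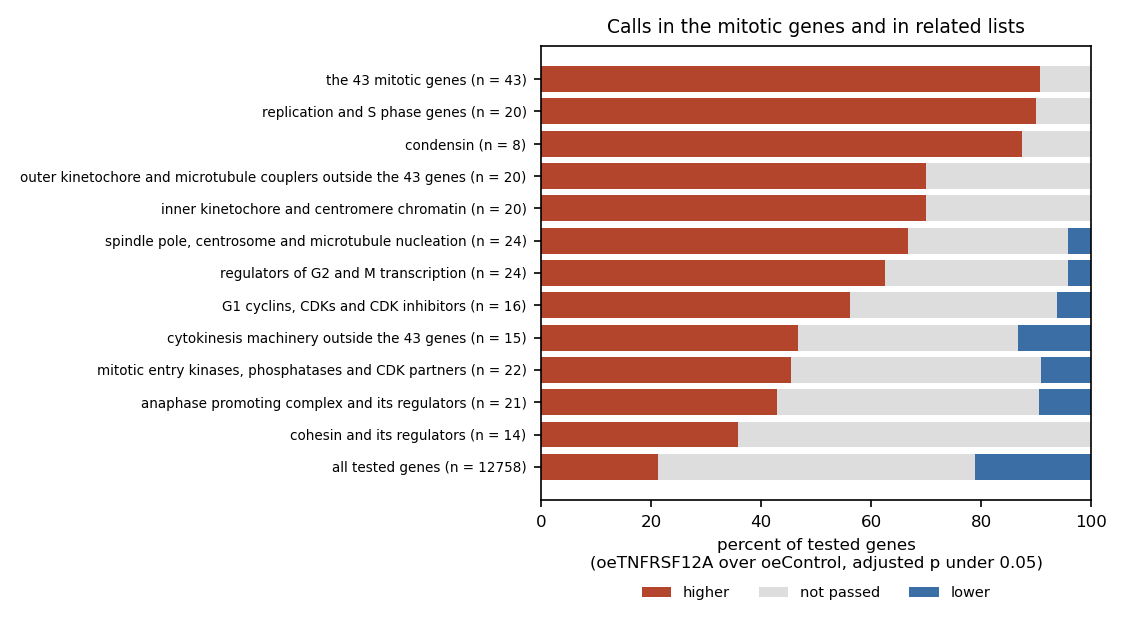
Share of tested genes (x axis, percent) that were higher, not passed or lower in oeTNFRSF12A over oeControl (adjusted p under 0.05) for the 43 mitotic genes, for 11 related lists ordered by the share of higher genes, and for all tested genes. The 43 genes stand at 90.7% called, all of them higher, and all tested genes at 42.3%, about equally split. Close to the 43 stand the replication and S phase genes, at 90% higher, and condensin, at 87.5% higher.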

How the data were processed

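Polyadenylated RNA was sequenced from 3 oeTNFRSF12A and 3 oeControl libraries. The deposited values are expected counts per gene symbol, held by the authors as whole numbers. Per the submitters' processing notes HISAT2 2.2.1, Bowtie2 2.4.5 and RSEM 1.3.1 were used with GRCh38 (hg38); their roles, the annotation and any strand setting are not stated there. The table has 19396 rows, of which 1 lacks a gene name (0 counts) and was dropped.

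Genes were kept by filterByExpr (minimum count 10), which left 12758. In R 4.3.3 with edgeR 4.0.16, TMM factors, a robust quasi-likelihood fit on group alone was used, with Benjamini-Hochberg adjusted p over all tested genes. The minimum-fold test was glmTreat. SE is the log2 fold change over the square root of F; adjusted p-values are edgeR's. The fit was run on simulated counts drawn with a common dispersion for all genes, so it was not tested at the spread of single genes. Within groups, chi-square per gene was 1.65 to 3.57 over 11453 genes, so no pair of libraries agreed within sampling noise; the highest values involved oeTNFRSF12A replicate 3.

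The members, lists and tests were chosen with earlier results of these data known. Named genes were the 12 lowest adjusted p, the 3 largest and 3 smallest fold changes and those not passing among the 43. Added to these were the 2 lowest p per direction in each list and 8 fixed regulators. Other members are given by their log2 fold change. Outside this rule, counts are also printed for CDK1, CDC25C, PLK1, NEK2, NDC80, NUF2 and ESPL1, and CPM ranges for CCNB1. A few other genes, such as CDKN1A, PLK2 and PLK3, are named to describe the make-up of their lists. Exon overlaps are from GENCODE release 29, promoters from RefSeq (GRCh38.p14). Library totals of 18154839 to 18406885 counts set the precision: the SE of the 43 genes is largest for those with the fewest counts.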

Additional observations from a re-analysis of the deposited data

How the results depend on the processing

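The count of the 43 genes that were higher was 38 or 39 in every setting tried: DESeq2 size factors, upper-quartile factors, library totals alone, no filter, a minimum count of 50, DESeq2 1.42.0, limma-voom 3.58.1, the replicate block and leaving out each library. The gene lost in those with 38 was NEK2. The count that were lower was 0, and 0 to 1 on leaving out each library, the 1 being CDC25B. The median log2 fold change was 0.26 to 0.30. With DESeq2, 38 rose, while 1937 of 12758 tested genes were higher and 30.8% were called in either direction. Over all tested genes 3165 of 12758 were higher with library totals alone and 2468 of 12758 with upper-quartile factors. With no filter 2889 of 15957 were higher, and on leaving out each library 2184 of 12853 to 2703 of 12854. The count past a minimum fold of 1.2 was 4. It was 8 with library totals alone, 34 with a minimum fold of 1.1 and 2 to 6 on leaving out each library. For these other settings the share of all tested genes past the minimum fold was not computed. The log2 fold change of SPC24, never called, was -0.0061 with a minimum count of 50, -0.010 with upper-quartile factors and -0.0601 to 0.0648 on leaving out each library. That of RBL2, never called, was -0.0536 to 0.0273 on leaving out each library. The causes were not tested. Library totals alone moved the median of all genes to 0.02.

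Replicate numbers are shared between the groups, but same-numbered libraries did not deviate together (correlations of -0.02, 0.02 and 0.03, and not every library correlated best with its own number). With the replicate block 39 of the 43 genes were higher and 5396 of all genes were called, against 5402 without it.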
